A study of Mus musculus with 54 samples.

Results

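The genes described here encode the proteins of the cytosolic ribosome, measured by RNA sequencing in mouse cerebellum. Members were all genes of the deposited expression tables named Rpl or Rps followed by a number and at most 1 letter, together with Rplp0, Rplp1, Rplp2 and Rpsa. Pseudogenes were left out. The rule found 79 members at each age (47 of the large subunit and 32 of the small subunit) among 17827 features at 9 weeks, 19432 at postnatal day 28 (P28) and 19232 at postnatal day 5 (P5). Of these, 78 passed the filter on low values at each age. The member that did not pass was Rpl3l, a paralog of Rpl3 known from striated muscle, with a mean control level of 0.294 FPKM (fragments scaled by transcript length and library size) at P28 and 0.0497 FPKM at P5.

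The study compared mice in which genes were deleted with Nes-cre, a Cre recombinase driven by Nestin regulatory sequence, which acts in neural progenitors and their descendants. Microglia, meninges and blood cells do not arise from these progenitors and so keep the genes. RnaseH2B is a part of the enzyme RNase H2, which cuts misplaced ribonucleotides out of DNA. Atm is a kinase that responds to DNA breaks, and p53 (gene Trp53) is a transcription factor activated downstream of DNA damage. At 9 weeks there were 7 libraries labelled RnaseH2B Nes-cre and 7 control libraries. P28 had 5 libraries each of control, RnaseH2B Nes-cre, Atm Nes-cre and the compound RnaseH2B,Atm Nes-cre. At P5 there were 3 libraries each of control, RnaseH2B Nes-cre, p53 Nes-cre and Atm Nes-cre, and 4 each of the compounds RnaseH2B,Atm Nes-cre and RnaseH2B,p53 Nes-cre. These groups are called Rnaseh2b, Atm, p53, Rnaseh2b/Atm and Rnaseh2b/p53 below. All are whole cerebellum, and whether the controls carried Cre is not given in the labels. RNA was poly-A enriched at P28 and prepared as stranded total RNA at P5 and 9 weeks. Nothing in the labels says that the libraries of a group are from separate animals, and the p-values then reflect only library-to-library spread, which may be technical.

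A ribosome consists of a small subunit, which decodes the mRNA, and a large subunit, which joins the amino acids. Cells assemble both in the nucleolus from rRNA and from ribosomal proteins that are needed in equal numbers. In mammals most ribosomal protein mRNAs begin with a terminal oligopyrimidine tract (TOP), a C followed by an unbroken run of C and T, through which mTORC1 controls how strongly they are translated. When ribosome assembly fails, free Rpl5 and Rpl11 with 5S rRNA can bind Mdm2 and so stabilise p53. In bulk cerebellum, fewer cells of a type and less RNA per cell cannot be told apart.

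RefSeq start sequences (build GRCm38.p6) were on hand for 58 of the 79 members. A C followed by at least 4 C or T within 10 bases of either side of the start stood on the transcribed strand in 31 of them (53.45%) and on the other strand in 10 (17.24%). Among all 27025 genes of the same table the shares were 28.76% and 31.63%. A match is a description of the letters and does not show a working TOP tract. The starts below, 30 bases around the start site with the run in capitals, are shown because the values of these genes recur in the results. A run was found in Rps6, the small subunit protein phosphorylated by S6 kinase. Of the 5 genes with a start sequence among those higher at 9 weeks, Rps10 and Rpl28 held a run and Rpl41, Rps15 and Rps19 did not. Of the 6 genes whose P28 differences were the most stable, Rps15a and Rpl6 held a run and Rps7, Rpl5, Rps4x and Rpl4 did not. Genes with and without a run thus stood in both sets, and no difference is read from it.
Rps6 (chr4:86857353-86857382, minus strand): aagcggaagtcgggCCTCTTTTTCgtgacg
Rps10 (chr17:27635230-27635259, minus strand): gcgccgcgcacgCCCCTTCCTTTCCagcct
Rpl28 (chr7:4792950-4792979, plus strand): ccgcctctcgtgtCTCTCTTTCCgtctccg
Rps15a (chr7:118116133-118116162, minus strand): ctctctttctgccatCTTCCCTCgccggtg
Rpl6 (chr5:121204486-121204515, plus strand): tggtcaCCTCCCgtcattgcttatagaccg
Rps7 (chr12:28635939-28635968, minus strand): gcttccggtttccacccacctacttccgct
Rpl5 (chr5:107900513-107900542, plus strand): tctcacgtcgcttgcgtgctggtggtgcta
Rps4x (chrX:102189377-102189406, minus strand): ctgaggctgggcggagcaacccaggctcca

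Reads in genes numbered 24.1 to 89.7 M (mega) at P28 (median 62.9 M) and 48.2 to 95.1 M at P5, except for 711 M in Rnaseh2b/p53 library 3. Depth at 9 weeks is unknown. The deleted gene Rnaseh2b fell in the libraries so labelled, from 2.84 ± 0.09 log2 CPM (CPM, counts scaled to library size; mean ± SD, n = 5) in control to 1.12 ± 0.18 in Rnaseh2b and 0.90 ± 0.24 in Rnaseh2b/Atm at P28, and Trp53 at P5 was 3.71 ± 0.61 in control and 1.64 ± 0.31 in p53. Atm was 4.79 ± 0.15 in the P28 libraries labelled Atm and 4.83 ± 0.06 in control, so the gene level does not check that label. It was 4.71 ± 0.10 in Rnaseh2b and 4.05 ± 0.05 in Rnaseh2b/Atm, so at P28 only the compound lay clearly below control. Defining cerebellar markers were present, with Gabra6 of granule neurons at 9.28 and Pcp2 of Purkinje cells at 8.13 mean log2 CPM in P28 controls. At P5, Atm library 1 and control library 2 stood apart: their mean level of granule neuron markers was 2.42 and 0.94 log2 below the control mean. Member calls that rest on these libraries are also given without them.

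Ribosomal protein mRNAs were abundant and spanned more than an order of magnitude among members. In control libraries the members' mean level per length had a median of 122 FPKM at P5 (26.5 to 647), 50.4 at P28 (7.97 to 583) and 41.7 at 9 weeks (10.5 to 239). Rplp1, a protein of the stalk that recruits translation factors to the large subunit, was the highest at every age. At P5 it was followed by Rpl32 with 483 FPKM, Rpl8 with 449, Rpl4 with 401 and Rps24 with 388, and at P28 by Rpl8 with 221, Rpl32 with 212, Rpl4 with 191 and Rps15 with 172. The lowest at P5 were Rpl36a with 26.5 FPKM, Rpl24 with 29.9 and Rpl27 with 30.2. Rps19 with 7.97 FPKM and Rps27l with 8.58 were lowest at P28, and Rpl36a with 10.5 and Rps16 with 10.7 at 9 weeks.

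The FPKM was higher at P5 than at 9 weeks for 78 of 78 members, by a median ratio of 2.71 that ran from 1.25 for Rpl24 to 6.55 for Rps2. It was higher at P5 than at P28 for 76 of 78, with a median ratio of 2.35 and the lowest ratio, 0.893, for Rpl28. Between P28 and 9 weeks 47 of 78 were higher at P28, with a median ratio of 1.09 that ran from 0.534 for Rpl38 to 4.77 for Rps16. On the log2 CPM scale, which does not divide by length, 77 of 78 were higher at P5 than at 9 weeks (all but Rpl24) and 71 of 78 higher at P5 than at P28. The 7 that were not were Rpl28, Rpl23a, Rpl27a, Rpl29, Rplp1, Rps13 and Rps16. These values set tables side by side that were normalized separately, made from different RNA fractions at P28, and the 9-week FPKM is of uncertain scale, so they carry no test. The members took 1.62 ± 0.26% (SD, n = 3) of the reads in genes in P5 controls and 0.679 ± 0.105% (n = 5) in P28 controls. Rpl10l and Rpl39l, paralogs known from testis, had no log2 CPM values, and their deposited level reached at most 0.0203 and 0.156 FPKM in any P28 library.

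**Figure D1:**
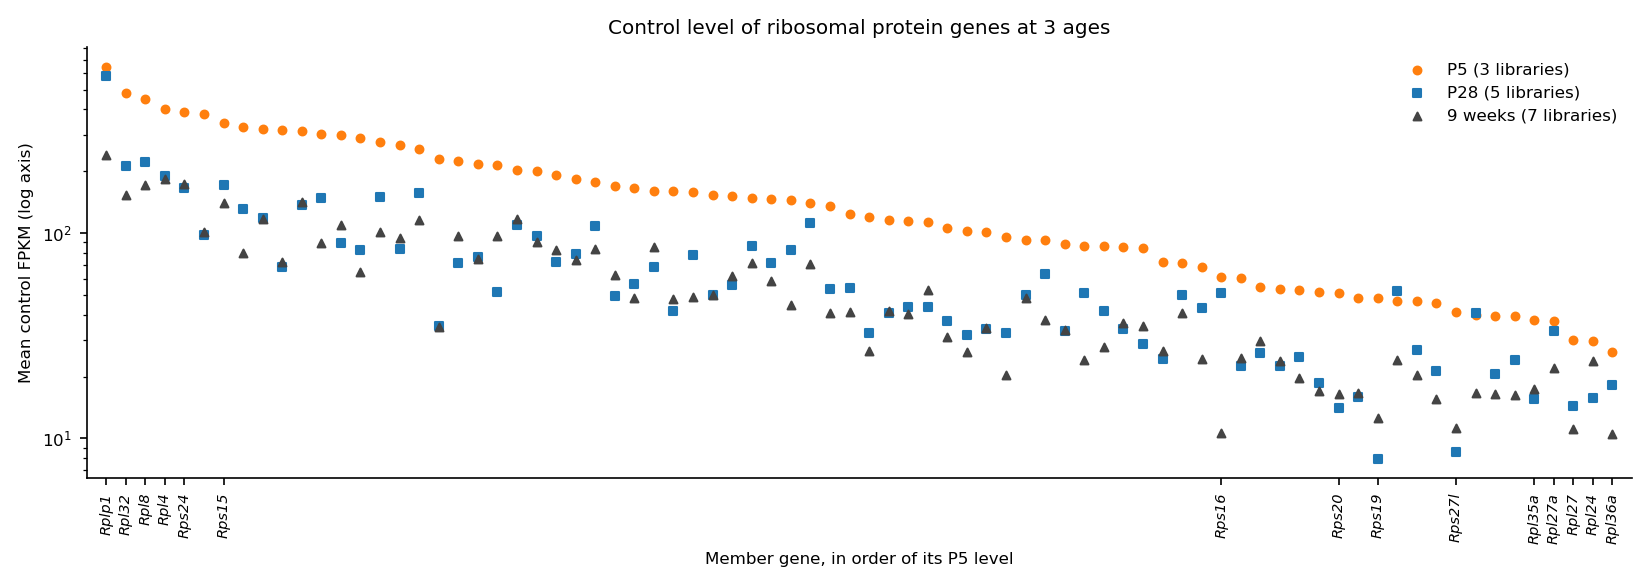
Mean control level of each of the 78 members in FPKM (log axis), ordered by the level at P5, with the 5 highest and 5 lowest at each age named on the axis, for 3 libraries at P5 (circles), 5 at P28 (squares) and 7 at 9 weeks (triangles). Rplp1 stands highest at each age, and the P5 points lie above the 9-week points for all 78 members, on FPKM tables normalized separately.

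Members also differed in how far libraries of the same group spread. The median SD within groups was 0.105 log2 at 9 weeks, 0.233 at P28 and 0.134 at P5, against 0.124, 0.129 and 0.117 for all genes in the same range of levels. At P28 the members thus spread more between libraries of a group than other genes of their level did, though this was not tested. The most variable were Rpl29 (SD 0.85 at P28 and 1.24 at P5), Rpl34 (1.16 at P5), Rps3a (0.80 at P5), Rplp1 (0.64 at P28) and Rpl13 (0.59 at P28). Among the steadiest were Rpl15 with 0.052 at P5 and Rpl4 with 0.064 at P28.

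At P28 the compound Rnaseh2b/Atm group, set against control, asks how the labelled loss of both genes affects the cerebellum. Ribosomal protein mRNAs differed between these groups in both directions. By limma with Benjamini-Hochberg adjustment over all genes tested, 7 of 78 members rose (8.97%) where 31.5% of all 16530 genes did, and 27 fell (34.6%) where 32.1% of all genes did. The share that fell was near that of all genes, and the share that rose was below it. The median difference of the members was -0.25 log2 against -0.02 for all genes, and 15 of 78 were above 0. In the large subunit 3 members rose and 16 fell of 46 (median -0.34), and in the small subunit 4 rose and 11 fell of 32 (median -0.19).

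Of these 34 calls, 6 were kept in each of the 10 fits that left out 1 library and each of 10 other alternatives. Rps7, Rps4x, Rpl4 and Rpl6 rose and Rpl5 and Rps15a fell. Rps7 is a small subunit protein that can bind Mdm2. Rps7 was at 5.81, 5.72, 5.86, 5.74 and 5.72 log2 CPM in control libraries 1 to 5 and at 6.17, 6.11, 6.28, 6.11 and 6.25 in Rnaseh2b/Atm libraries 1 to 5. It was at 6.04, 6.17, 5.97, 5.85 and 6.15 in Rnaseh2b and at 6.004, 5.88, 5.70, 6.002 and 5.86 in Atm. Every compound library lay above every control and Atm library, and the compound and Rnaseh2b libraries overlapped. Rps7 was 1.33-fold higher in Rnaseh2b/Atm than in control (0.42 ± 0.07 log2, SE; adjusted p = 1.89e-05).

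Rps4x, the X-linked member of the small subunit, was at 6.88, 6.66, 6.82, 6.84 and 6.84 log2 CPM in control and at 7.05, 7.17, 7.19, 6.99 and 7.10 in Rnaseh2b/Atm. These 2 groups did not overlap, and Rps4x rose 1.22-fold (0.29 ± 0.07; limma adjusted p = 0.0020). Rpl4, a large subunit protein that lines the exit tunnel, was at 8.17, 7.99, 8.09, 8.10 and 8.12 in control and at 8.31, 8.19, 8.31, 8.16 and 8.24 in the compound. Its highest control library was just above its lowest compound library, and it rose 1.11-fold (0.15 ± 0.04; limma adjusted p = 0.0070). Rpl6, another large subunit protein, was at 6.86, 6.57, 6.78, 6.73 and 6.81 in control and at 7.07, 6.82, 7.11, 6.87 and 6.96 in the compound. Its groups also overlapped, with a rise of 1.17-fold (0.22 ± 0.07; limma adjusted p = 0.0093).

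Rpl5, which carries 5S rRNA into the large subunit, was at 6.55, 6.18, 6.54, 6.53 and 6.56 log2 CPM in control and at 6.11, 6.01, 5.88, 5.96 and 6.05 in Rnaseh2b/Atm. It was at 6.18, 6.14, 6.12, 6.50 and 6.28 in Rnaseh2b and at 6.40, 6.20, 6.54, 6.21 and 6.50 in Atm. The compound libraries lay below all 15 others. Rpl5 was 1.39-fold lower than in control (-0.47 ± 0.09; limma adjusted p = 0.000121). Its partner in the 5S particle, Rpl11, did not pass the test (-0.09 ± 0.10, adjusted p = 0.41), with control libraries from 5.86 to 6.34 and compound libraries from 5.88 to 6.32.

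Rps15a, a small subunit protein, was at 7.18, 6.91, 7.12, 7.52 and 7.45 log2 CPM in control and at 6.87, 6.61, 6.86, 6.45 and 6.84 in Rnaseh2b/Atm. It was at 7.17, 6.91, 6.87, 7.13 and 7.24 in Rnaseh2b and at 7.31, 7.23, 7.55, 7.41 and 7.18 in Atm. The compound libraries lay below every control and Atm library and met the Rnaseh2b libraries only at 6.87. Against control Rps15a was 1.42-fold lower (-0.51 ± 0.11; limma adjusted p = 0.000659).

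**Figure D2:**
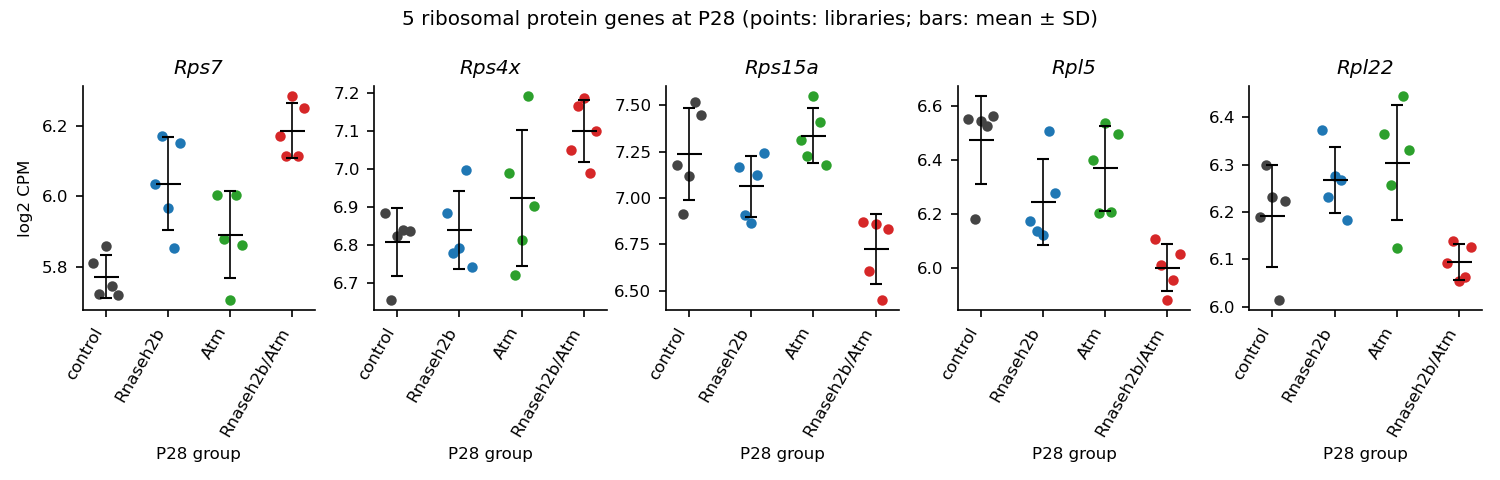
Level in log2 CPM of Rps7, Rps4x, Rps15a, Rpl5 and Rpl22 in the 4 groups at P28; each point is 1 of 5 libraries, and bars show the mean ± SD on an axis that does not start at 0. The Rnaseh2b/Atm points of Rps7 lie above and those of Rpl5 below all control points, and those of Rpl22 fall between 6.05 and 6.14.

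Other members that fell in Rnaseh2b/Atm did so by larger and more variable amounts. Rpl23a, next to the exit of the tunnel, fell by 0.86 log2 (SE 0.24; limma adjusted p = 0.0037). Its libraries were at 6.74, 5.65, 6.96, 6.63 and 6.57 in control and at 5.96, 5.39, 5.49, 5.64 and 5.78 in the compound, so control library 2 lay among the compound libraries. Rplp0, the base of the stalk, fell by 0.64 (SE 0.19; limma adjusted p = 0.0068), while its stalk partners Rplp1 (-0.58 ± 0.37, adjusted p = 0.18) and Rplp2 (-0.73 ± 0.32, adjusted p = 0.053) did not pass. Rplp1 was at 8.43, 6.87, 8.39, 8.51 and 8.20 in control and at 7.84, 6.76, 7.67, 7.52 and 7.73 in the compound, and again control library 2 was far below the other controls. Rpl31, Rpl27 and Rpl10a also fell, by 0.74, 0.82 and 0.42. Rpl24, which forms a bridge between the subunits, and Rps19 of the small subunit rose by 0.36 and 0.23. Rps6 (-0.14 ± 0.13), Rpl26 (-0.33 ± 0.15), Rpsa (0.08 ± 0.09) and Rpl3 (-0.13 ± 0.11) did not pass, with adjusted p of 0.35, 0.064, 0.44 and 0.32.

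The level of all members together also moved from library to library. Relative to the control mean, the mean of the 78 members was 0.16, -0.46, 0.15, 0.10 and 0.05 log2 in control libraries 1 to 5 and -0.11, -0.49, -0.24, -0.32 and -0.20 in Rnaseh2b/Atm libraries 1 to 5. It was -0.31, -0.33, -0.26, 0.14 and -0.23 in Rnaseh2b and -0.04, -0.32, 0.08, -0.40 and 0.05 in Atm. Control library 2 was as low as the lowest compound library. Without it, 50 members fell and 6 rose in Rnaseh2b/Atm against control (median -0.36), so that 64.1% fell against 33.1% of all genes. Without Rnaseh2b/Atm library 2, 18 fell and 8 rose (median -0.18), so that 23.1% fell against 31.5% of all genes. Both libraries were picked by the low level of the members themselves, so these shifts follow in part from that choice.

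Genes of high GC content moved in the same libraries. Over the 979 other genes above 58% GC, the mean level relative to control was 0.08, -0.23, 0.06, 0.04 and 0.05 in the control libraries and -0.19, -0.62, -0.32, -0.25 and -0.29 in the compound libraries. In Rnaseh2b/Atm against control 540 of these genes fell and 105 rose (median -0.33). With their level as a covariate, an alternative chosen after seeing the data, 18 members rose and 3 fell, and the median difference turned to 0.06. These are 23.1% higher and 3.85% lower, against 32.7% and 31.2% of all genes. The calls in common with the main fit, in the same direction, were the 6 members kept throughout. This fit was 1 of the alternatives by which those 6 were picked, so their call under it is no further result. The 27 had a median GC content of 52.7%, the 44 uncalled members 51.9% and the 7 that rose 50.7%.

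**Figure D3:**
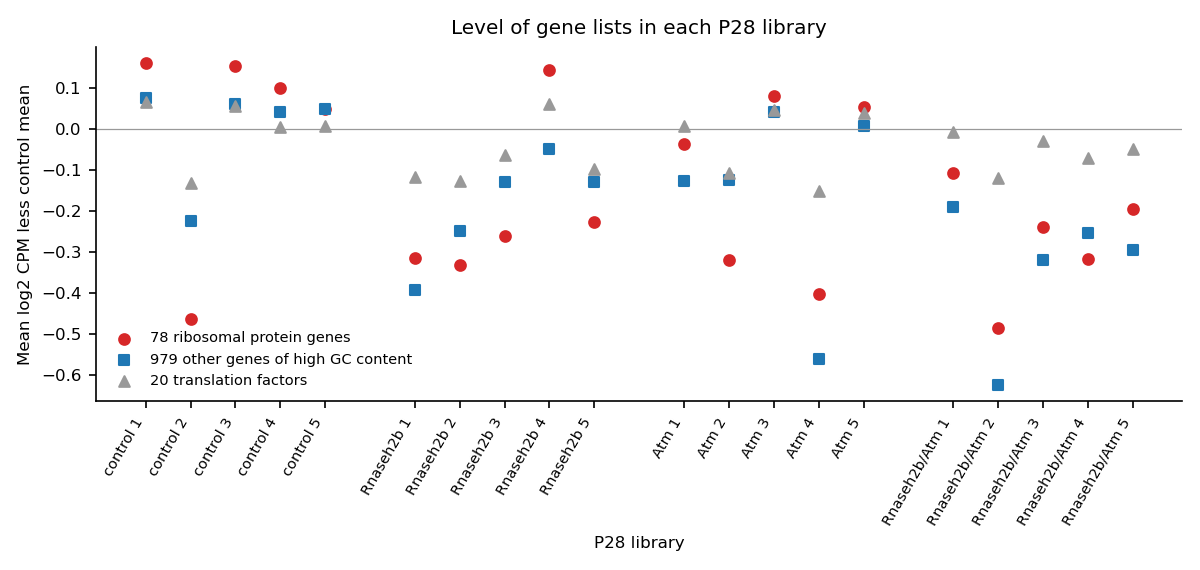
Mean log2 CPM less the control mean in each of the 20 libraries at P28, for the 78 members (circles), 979 other genes of high GC content (squares) and 20 other genes listed for their TOP mRNAs, mostly translation factors (triangles). Control library 2 sits at -0.46 for the members, next to the lowest compound library at -0.49.

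Cell type markers changed strongly in the same comparison. In the Rnaseh2b/Atm libraries the mean of the granule neuron markers was 1.14 to 1.93 log2 below the control mean, and 9 of 10 fell (Gabra6 by 1.70, Neurod1 by 1.79). All 9 microglia markers rose, as did 5 of 9 Purkinje cell and 7 of 8 meningeal markers, and 7 of 9 oligodendrocyte markers fell. The part of these shifts in the member differences was not tested.

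Set against Atm alone, Rnaseh2b/Atm had 2 members higher (2.56%) where 30.0% of all genes were, and 9 lower (11.5%) where 31.0% were. The median of the members was -0.15 and that of all genes -0.03. With the level of high-GC genes as a covariate 11 were higher (14.1%; 34.1% of all genes). With it 7 were lower (8.97%; 34.2% of all genes), and the median was 0.05. Of the 11 calls without it, Rps7 (0.30 ± 0.07) on the higher side and Rps15a (-0.61 ± 0.11), Rpl5 (-0.37 ± 0.09), Rpl34 (-0.67 ± 0.18), Rpl18 (-0.32 ± 0.09), Rpl22 (-0.21 ± 0.06) and Rpl30 (-0.50 ± 0.16) on the lower side were called in each alternative, with limma adjusted p from 0.000111 for Rps15a to 0.0105 for Rpl30. Rpl22 is a large subunit protein that binds RNA and that ribosomes can do without. Rpl22 was at 6.36, 6.26, 6.12, 6.44 and 6.33 log2 CPM in Atm and at 6.09, 6.14, 6.05, 6.06 and 6.13 in Rnaseh2b/Atm. The lowest Atm library, 3, overlapped with the compound. Rpl34 has a near-identical copy, and with the reads of Rpl34-ps1 added its difference was -0.29 (limma adjusted p = 0.020).

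Against Rnaseh2b alone, 2 members were higher in Rnaseh2b/Atm (2.56%; 24.9% of all genes) and 4 lower (5.13%; 24.6% of all genes). Rps4x rose (0.26 ± 0.07; limma adjusted p = 0.0064) and was the only 1 of the 6 called in each alternative. Rpl4 was higher by 0.13, and Rps15a, Rpl22 and Rpl5 were lower, with differences of -0.34, -0.17 and -0.24. Rpl22 was at 6.37, 6.23, 6.28, 6.27 and 6.18 in Rnaseh2b, above every compound library. Rpl29, a gene with near-identical copies that are described further on, was also lower (-1.39 ± 0.49, adjusted p = 0.025). With the high-GC covariate 12 members were higher and 3 lower against Rnaseh2b (15.4% and 3.85%), where 30.8% and 29.6% of all genes were. The members' median was 0.09 with it and -0.05 without.

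The 3 compound comparisons share libraries with each other and with those of the single deletions, so their agreement is not independent. Rnaseh2b alone against control had 1 member higher (1.28%), where 2.85% of all genes were. This was Rps7 (0.26 ± 0.07; limma adjusted p = 0.028), kept in 5 of the 10 fits that left out 1 library and in 10 of 10 other alternatives. The median of the members was -0.18 against 0.00 for all genes, with 14 of 78 above 0. The largest differences, Rplp1 at -0.66, Rpl27 at -0.64 and Rpl13 at -0.62, did not pass (limma adjusted p = 0.27, 0.13 and 0.25). Without control library 2, 26 members were lower (33.3%) and 2 higher (2.56%), where 1282 of all genes (7.76%) were called in each direction. Library 2 had been singled out by the low level of the members themselves, so more lower calls follow in part from that choice. The mean of the granule neuron markers in the Rnaseh2b libraries was 0.10 to 0.36 below control, and of the 979 high-GC genes 64 fell and 4 rose (median -0.19). With their level as a covariate Rps7 alone was called (1.28% higher; 3.55% of all genes), and the members' median was -0.01.

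Atm alone against control had 1 member lower (1.28%; 0.920% of all genes). It was Rps3a (-0.62 ± 0.15; limma adjusted p = 0.031), kept in 3 of 10 fits that left out 1 library. Rps3a is also read together with the row Gm9000 further on. Rplp0 (-0.73 ± 0.19, adjusted p = 0.058), Rpl24 (0.31, adjusted p = 0.059) and Rpl29 (-1.71 ± 0.49, adjusted p = 0.084) did not pass. The members' median was -0.09 and that of all genes 0.00.

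The interaction tests whether the Rnaseh2b difference changed between libraries labelled with and without the Atm deletion. It called 1 member higher (1.28%; 18.7% of all genes) and 2 lower (2.56%; 19.0% of all genes). Rpl22 (-0.28 ± 0.08; limma adjusted p = 0.0106) was called in each alternative. Rpl22 had group means of 6.19 in control, 6.27 in Rnaseh2b, 6.30 in Atm and 6.09 in the compound, so that only the compound lay below control. Rps15a (-0.44 ± 0.16, adjusted p = 0.037) and Rps3a (0.59 ± 0.21, adjusted p = 0.029) were called in the main fit and lost under some alternatives. They kept the call in 10 and 13 of the 20 fits that left out 1 library.

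Rpl22l1, the paralog that can take the place of Rpl22 in the ribosome, lies outside the symbol rule. It ran from 3.64 to 4.44 log2 CPM in control (median 4.07), from 4.47 to 4.74 in Rnaseh2b, from 3.85 to 4.92 in Atm and from 4.81 to 5.14 in Rnaseh2b/Atm. The compound and Rnaseh2b libraries lay above all controls, while those of Atm overlapped with them. Rpl22l1 rose by 0.95 ± 0.16 in Rnaseh2b/Atm (limma adjusted p = 3.68e-05) and by 0.57 ± 0.16 in Rnaseh2b (adjusted p = 0.043), and was 0.50 higher in Atm without passing (adjusted p = 0.11). At 9 weeks its difference was 0.23 (adjusted p = 0.061) and in Rnaseh2b/Atm at P5 0.04 (adjusted p = 0.81).

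Rps27l, a paralog of Rps27 known as a p53 target, did not pass in any comparison. At P28 it was at 2.90, 2.77, 2.77, 2.86 and 2.78 log2 CPM in control and at 3.12, 2.95, 2.99, 3.10 and 3.05 in Rnaseh2b/Atm. These groups did not overlap, but the difference missed the threshold (0.22 ± 0.11; limma adjusted p = 0.089). Of 16 other genes read as p53 targets, 11 rose and 3 fell in the same comparison, among them Cdkn1a by 1.61.

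**Figure D4:**
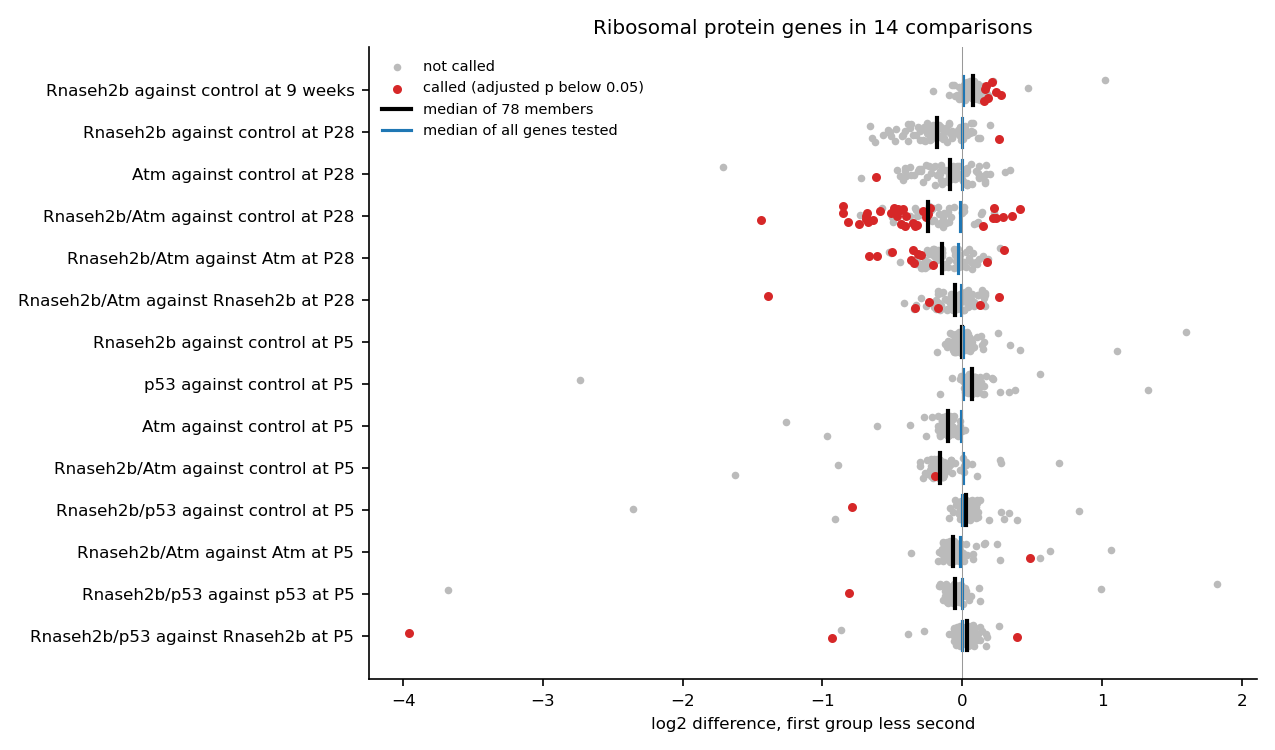
Log2 difference of each of the 78 members in 14 comparisons of 2 groups, with members called at an adjusted p below 0.05 in red, the members' median as a black bar and the median of all genes tested as a blue bar. Most calls lie in the row of Rnaseh2b/Atm against control at P28, with 27 below and 7 above 0, and at P5 a few members such as Rpl29 stand far from the rest.

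At P5 few members passed the test in any comparison. Rnaseh2b against control called 0 of 78 members (0.681% of all genes), with 2 at an unadjusted p under 0.05. p53 against control called 0 (0.175% of all genes; 5 members at an unadjusted p under 0.05), and Atm against control called 0 (0% of all genes; 1 member at an unadjusted p under 0.05), all by limma. The interaction of Rnaseh2b and p53 called 0 members (0.00648% of all genes), with 4 at an unadjusted p under 0.05. On recovered reads limma voom also called 0 members in these 4 comparisons. Member medians were 0.00 in Rnaseh2b, 0.07 in p53 and -0.10 in Atm, with 37, 73 and 1 of 78 above 0. Without control library 2 the medians were -0.07, 0.005 and -0.17, and 0 members were called. Without Atm library 1 as well, the Atm median was -0.08.

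Rnaseh2b/Atm against control at P5 had 1 member lower (1.28%; 3.38% of all genes), and 19 at an unadjusted p under 0.05. It was Rpl27a, a large subunit protein, at 6.37, 6.29 and 6.26 log2 CPM in control and at 6.05, 6.13, 6.18 and 6.09 in the compound. The groups did not overlap, with a difference of -0.20 ± 0.05 (limma adjusted p = 0.033), and the call was kept in 2 of the 7 fits that left out 1 library and in 6 of 10 other alternatives. The members' median was -0.16 and that of all genes 0.01, and 10 of 78 were above 0. Without control library 2 and Atm library 1, 38 of 78 members were lower and 0 higher (48.7% lower, against 22.2% of all genes), with a median of -0.23. Without control library 2 alone, 20 were lower (25.6%, against 13.7% of all genes). Over the 7 fits that left out 1 library, the calls ran from 0 to 20 and the median from -0.23 to -0.075. The fits that lost Rpl27a include that without control library 1.

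The mean of the 78 members relative to control was 0.23, -0.13 and -0.10 log2 in the P5 controls and -0.19, -0.19, -0.08 and -0.17 in Rnaseh2b/Atm. Control libraries 2 and 3 lay within the range of the compound libraries, and only control library 1 lay above it. In the same comparison 7 of 9 microglia and 3 of 9 Purkinje cell markers rose, none of 14 granule progenitor markers passed the test, 5 of 7 skeletal muscle markers rose and the 1 small structural RNA tested fell by 7.15. Their part in the member values was not tested. Members with stable P28 differences did not pass here: Rps7 (0.11, adjusted p = 0.50), Rps15a (0.07, adjusted p = 0.65), Rpl5 (-0.22 ± 0.10, adjusted p = 0.18), Rps4x (-0.30, adjusted p = 0.14), Rpl4 (-0.19, adjusted p = 0.16) and Rpl6 (-0.12, adjusted p = 0.31). The P5 difference of Rps4x and Rpl4 was on the opposite side of 0 from that at P28, and the difference between ages was not tested.

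Rnaseh2b/Atm against Atm at P5 had 1 member higher (1.28%; 7.48% of all genes), Rps13 of the small subunit. Rps13 was at 4.95, 5.28 and 5.22 log2 CPM in Atm and at 5.61, 5.63, 5.77 and 5.53 in the compound (0.49 ± 0.12; limma adjusted p = 0.017). The groups did not overlap, and the call was lost without Atm library 1 or without Rnaseh2b/Atm library 3. Rps13-ps1, its pseudogene, ran the other way, at 6.34 ± 0.20 in Atm and 4.55 ± 0.09 in the compound. With the reads of both rows summed, Rps13 was lower in the compound (-0.67 ± 0.15, adjusted p = 0.0083). Rps27l had a difference of 0.56 ± 0.20 there (adjusted p = 0.096), with Atm libraries at 3.76, 4.63 and 4.69 and compound libraries at 5.02, 4.92, 4.996 and 4.74, which did not overlap.

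Rnaseh2b/p53 was set against control, p53 and Rnaseh2b, which share the compound libraries. Against control 1 member was lower (1.28%; 0.227% of all genes), against p53 1 was lower (1.28%; 0.0648% of all genes), and against Rnaseh2b 2 were lower (2.56%; 1.91% of all genes) and 1 higher (1.28%; 1.12% of all genes). Rpl3, a protein near the catalytic centre of the large subunit, was the member lower in each, with differences of -0.79, -0.81 and -0.93 (SE 0.15 each; limma adjusted p = 0.021, 0.039 and 0.0057). It was at 7.30, 7.29, 7.23 and 7.18 log2 CPM in Rnaseh2b/p53, and every other P5 library was at 7.55 or above. Of the 7 fits that left out 1 library, Rpl3 kept the call in 2 against control, 1 against p53 and 7 against Rnaseh2b. Without control library 2, 0 members were called against control (0.0908% of all genes in each direction). Without Atm library 1 as well, 1 was lower (1.28%; 0.201% of all genes). Rpl29 was lower (-3.96 ± 0.88, adjusted p = 0.025) and Rps7 higher (0.39 ± 0.10, adjusted p = 0.043) against Rnaseh2b. Rps7 was at 6.82, 6.87 and 6.84 in Rnaseh2b, at 7.16, 7.24 and 7.39 in p53 and at 7.38, 7.28, 7.25 and 7.01 in Rnaseh2b/p53, and it lost the call in 6 of the 7 fits that left out 1 library, as did Rpl29. With the reads of its 3 copies added, Rpl29 was at 7.07 ± 0.12 in Rnaseh2b/p53 and 6.83 ± 0.09 in Rnaseh2b.

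Several members have copies in the genome that differ from their coding sequence at few bases, so that a read may be counted on either row. In the GENCODE M21 transcripts Rpl3 (GRCm38 chr15:80077791-80091868) and Rpl3-ps1 (chrX:13202571-13203780, a processed pseudogene) differ at 2 of 1209 aligned coding bases. Rpl34 (chr3:130726831-130730398) and Rpl34-ps1 (chr6:71124610-71124963) differ at 2 of 354. Rpl29 (chr9:106429454-106431568) and Gm8210 (chr1:43189156-43189638) differ at 3 of 483, while Rps16 (chr7:28350652-28353155) and Rps16-ps2 (chr5:129128077-129128517) are identical over 441 coding bases. The stretches below, 60 coding bases of each pair, are shown because they hold a single difference, marked by a capital letter.
Rpl3, bases 1 to 60: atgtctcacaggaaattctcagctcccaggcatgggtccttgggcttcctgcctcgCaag
Rpl3-ps1: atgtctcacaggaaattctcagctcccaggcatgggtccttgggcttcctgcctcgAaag
Rpl34, bases 73 to 132: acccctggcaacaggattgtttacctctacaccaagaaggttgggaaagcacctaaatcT
Rpl34-ps1: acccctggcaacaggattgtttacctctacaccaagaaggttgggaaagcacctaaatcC
Rpl29, bases 13 to 72: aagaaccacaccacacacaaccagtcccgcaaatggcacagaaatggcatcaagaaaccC
Gm8210: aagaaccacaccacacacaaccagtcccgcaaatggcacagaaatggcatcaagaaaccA

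For Rpl3 the fall in Rnaseh2b/p53 was mirrored by its copy. Rpl3-ps1 was at 8.01 ± 0.07 log2 CPM in Rnaseh2b/p53, and the other P5 groups had means from 7.06 to 7.37. The sum of both rows had group means between 8.64 and 8.79. On the sum, the Rpl3 differences in Rnaseh2b/p53 were -0.01 ± 0.07 against control, -0.03 against p53 and -0.04 against Rnaseh2b (limma adjusted p = 0.977, 0.99999 and 0.852).

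Rpl29 and Rpl34 stood at very different levels in libraries of the same group. At P5 Rpl29 was at 6.73, 5.78 and 2.68 log2 CPM in the 3 controls, at 6.70, 6.58 and 6.73 in Rnaseh2b and between 2.61 and 2.87 in the 4 Rnaseh2b/p53 libraries. Rpl34 was at 6.93, 5.71 and 5.80 in control and at 3.42, 3.31 and 3.51 in p53, a difference of -2.73 ± 0.87 that did not pass (limma adjusted p = 0.44). The SD within groups at P5 was 1.24 for Rpl29 and 0.106 for its sum with the copies, 1.16 and 0.160 for Rpl34, and 0.800 and 0.226 for Rps3a (with the row Gm9000, for which no sequence was compared).

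At P28 Rpl29 was at 5.72, 5.39, 5.77, 5.64 and 5.74 in control, at 2.94, 4.78, 4.93, 2.06 and 4.97 in Atm and at 4.81, 2.38, 4.69, 4.58 and 4.58 in Rnaseh2b/Atm. All libraries labelled Atm or Rnaseh2b/Atm lay below all controls. The sum of Rpl29 with its 3 copies was 5.99 ± 0.19 in control, 5.89 ± 0.14 in Rnaseh2b, 6.22 ± 0.13 in Atm and 6.0003 ± 0.10 in Rnaseh2b/Atm. For Rps3a the sum with Gm9000 was 6.88 ± 0.17 in control and 6.63 ± 0.13 in Atm, where Rps3a alone was 6.75 ± 0.15 and 6.14 ± 0.16. The levels of single members with near-identical copies are therefore uncertain.

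**Figure D5:**
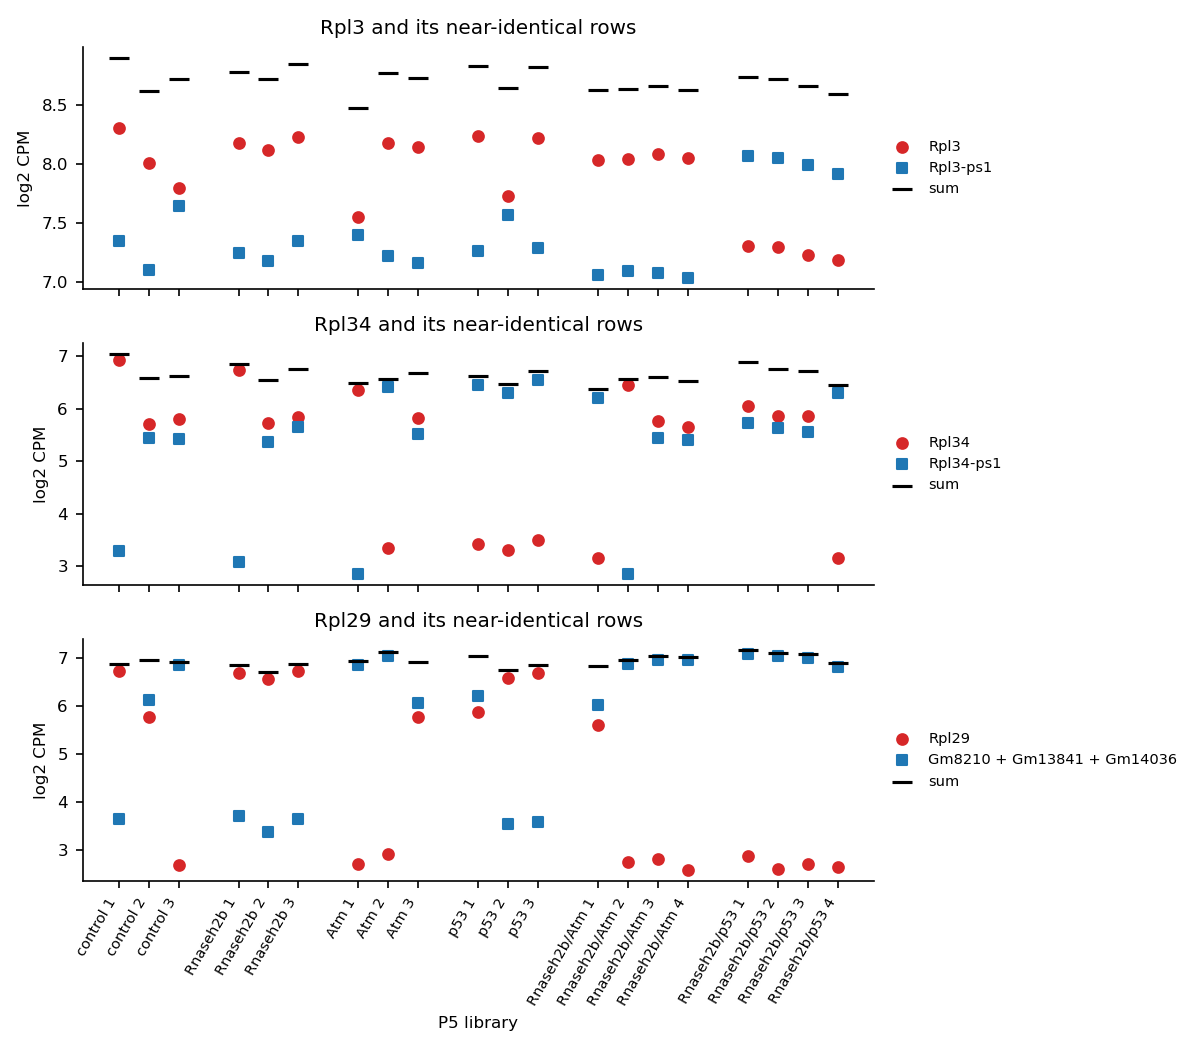
Level in log2 CPM of Rpl3, Rpl34 and Rpl29 (circles), of their near-identical rows (squares) and of the sum (bars) in each of the 20 libraries at P5. Rpl3 and Rpl3-ps1 change places in the 4 Rnaseh2b/p53 libraries, Rpl34 and Rpl29 switch within groups, while the sums spread with an SD within groups of 0.099 for Rpl3, 0.160 for Rpl34 and 0.106 for Rpl29.

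At 9 weeks, Rnaseh2b against control asks what lasting loss of the enzyme does in the adult cerebellum. It had 7 members higher (8.97%; 10.6% of all genes) and none lower, with 17 of 78 at an unadjusted p under 0.05 by limma. The members' median was 0.07 and that of all genes 0.00, and 66 of 78 were above 0. The 7 were Rpl41, Rps10, Rpl28, Rplp1, Rps15, Rpl36 and Rps19, and 4 belong to the large subunit. Rpl41, the smallest ribosomal protein, had a lowest, median and highest level of 6.50, 6.68 and 6.83 log2 CPM in control and of 6.80, 6.97 and 7.02 in Rnaseh2b. The groups overlapped slightly, and the rise was 1.21-fold (0.28 ± 0.05; limma adjusted p = 0.0031).

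Rps10, a protein at the beak of the small subunit, ran from 5.30 through a median of 5.56 to 5.63 in control and from 5.65 through 5.72 to 5.83 in Rnaseh2b. These did not overlap (0.21 ± 0.06; limma adjusted p = 0.017). Rpl41 and Rps10 were called in each of 14 fits that left out 1 library, and in 9 and 8 of 10 other alternatives. Within the blocks of library codes described below, Rpl41 lost the call in the second and Rps10 in both. Rplp1 (0.24 ± 0.07, adjusted p = 0.034) ran from 6.56 to 7.10 in control and from 6.88 to 7.20 in Rnaseh2b. It was called in 8 of the 14 and in 8 of 10 other alternatives. Rpl28, Rps15, Rpl36 and Rps19 rose by 0.16 to 0.18. Rpl28 was called in 10 of the 14 and in 7 of 10 other alternatives, Rps15 in 8 and 6, Rpl36 in 5 and 5, and Rps19 in 5 and 3.

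Members with stable differences in Rnaseh2b/Atm at P28 did not pass in this comparison, which holds the Rnaseh2b deletion alone: Rps7 had a difference of 0.13 (adjusted p = 0.32), Rps15a 0.04 (0.70), Rpl5 -0.06 (0.60), Rpl4 0.00 (0.96) and Rpl6 0.15 (0.051). Rpl29 had the largest difference, 1.02 ± 0.49 (limma adjusted p = 0.15), and ran from 2.35 to 5.75 in control. The library codes of the 9-week labels fall into 2 blocks, 11 to 16 and 50 to 58, and what the blocks stand for is not given. With the block as a covariate 5 members were called higher. Within the first block 2 were called higher and within the second 0, where 62 of all genes were higher and 28 lower, and the members' median was 0.09 and 0.05. Of the members called on all libraries, Rpl41 alone kept its call within the first block. Beside these values, 5 of 10 granule neuron markers fell, and 7 of 9 microglia and 7 of 9 oligodendrocyte markers rose. Their part was not tested.

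Other genes of the ribosome pathway were read from lists chosen with earlier results known. RNA polymerase I, which transcribes rRNA, had 1 gene higher and 8 lower of 13 in Rnaseh2b/Atm against control at P28 (median -0.36), a comparison in which 31.5% of all genes rose and 32.1% fell. Ubtf, the factor that keeps rRNA genes open, fell by 0.67 (SE 0.06; limma adjusted p = 1.06e-08) and in Rnaseh2b alone by 0.22 (adjusted p = 0.034). Of 33 ribosome biogenesis genes 3 rose and 15 fell (median -0.12), with Nle1, a factor of large subunit assembly, at -0.60 and Wdr12, of another complex that assembles the large subunit, at 0.26. Of 20 other genes listed for their TOP mRNAs, mostly translation factors, 5 rose and 4 fell (median -0.07). This list also holds genes such as Vim, and it shares Npm1 with the biogenesis list. Of 75 mitochondrial ribosomal proteins 19 rose and 12 fell (median 0.02).

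Among 15 regulators of ribosome production 3 rose and 7 fell, with Rps6kb2, the second S6 kinase, at -0.65 and Myc, which drives ribosome genes, at 1.34. Rows of ribosomal protein pseudogenes had 14 higher and 6 lower of 58. At P5, Rnaseh2b/Atm against control called none of the 33 biogenesis genes, 2 lower of the 20 listed TOP genes (Eif3h at -0.23 and Eif4b at -0.22; median -0.22) and 1 higher of 75 mitochondrial ribosomal proteins. At 9 weeks 2 biogenesis genes rose and 2 fell, 0 of the 20 listed TOP genes and 0 of 13 RNA polymerase I genes were called, and 5 mitochondrial ribosomal proteins rose and 3 fell.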

How the data were processed

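RNA sequencing values of 54 libraries were taken as deposited. The authors' tables hold log2 CPM (log2 of counts scaled to library size) per gene and FPKM per gene. Build mm9 and the tools limma, HTSeq, BWA, STAR and Trim Galore are named per the submitters' processing notes, with roles and settings not given in the sources used here. At 9 weeks the deposited FPKM is treated as a score, because it holds 30976 values below 0, which were set to 0, and the log2 CPM of the 2 blocks of library codes have equal means per gene. Reads outside genes, 19.7 to 31.7% at P5, were left out of depths. Whole reads were recovered from the log2 CPM at P28 and P5, where 100% of the values checked lay within 0.05 of a whole read. On these, limma voom called 5330 genes higher and 5392 lower in Rnaseh2b/Atm against control at P28, with 7 members higher and 27 lower.

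Each age was fitted on its own with limma 3.58.1 (R 4.3.3) on log2 CPM with a variance trend and all groups in the fit, on genes with at least 1 CPM in 7 libraries at 9 weeks, 5 at P28 and 3 at P5. Tests are 2-sided, p-values were adjusted by Benjamini-Hochberg over all genes tested, with an adjusted p below 0.05 taken as a call. The model was tested on simulated data first. Members and lists were chosen with earlier results of these data known. Genes were named by rule: a preset set of members with known roles, up to 6 members of smallest adjusted p in each direction and up to 3 of largest difference in each comparison, and the 5 highest, lowest, most variable and least variable at each age. Some members that the rule names are not reported here. Replicate numbers did not pair the libraries.

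Alternatives were libraries left out, a replicate block, other scalings, filters and models (limma voom on recovered reads), log2 of FPKM plus 1 or 0.1, code block terms, pseudogene rows summed and a GC covariate, the last 2 chosen after seeing the data. Start sequences are RefSeq (GRCm38.p6), and coding sequences GENCODE M21, aligned with biotite 1.4.0. Python 3.11.15, pandas 2.3.3 and matplotlib 3.10.9 were used. No position was joined to the mm9 files.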

Additional observations from a re-analysis of the deposited data

Results flagged for a closer look

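Among 120 group values looked at, in the 8 groups of 4 to 10 libraries, 16 held a library whose gap to the next exceeded Dixon's 95% value. Chance would mark about 1 in 20, here 6, if the values were independent. They are not, since members and their mean were read in the same libraries, so no excess is read from 16. Control library 2 at P28 gave 9 of the 16. It had the lowest mean of the members (-0.46 log2 from the control mean) and the lowest Rpl5 (6.18 log2 CPM), Rps4x (6.66), Rpl41 (6.50), Rps10 (5.87), Rplp1 (6.87), Rpl3 (7.28) and Rpl27a (5.90), and the highest Rpl24 (6.86). Rnaseh2b library 4 at P28 had the highest mean of the members in its group (0.14) and the highest Rpl41 (7.57), Rpl3 (7.79) and Rps13 (5.79), and Rnaseh2b library 2 at P28 the lowest Rps27l (2.76). At P5, Rnaseh2b/Atm library 3 had the highest mean of the members (-0.081) and the highest Rplp1 (8.01).

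The Rnaseh2b difference at P28 differed between libraries labelled with and without the Atm deletion, by the interaction term of limma, for Rps15a (-0.44), Rps3a (0.59) and Rpl22 (-0.28). Of the 20 fits that left out 1 library, Rpl22 kept the call in 20, Rps3a in 13 and Rps15a in 10. The sum of Rps3a with Gm9000 had means of 6.88 in control, 6.66 in Rnaseh2b, 6.63 in Atm and 6.65 in Rnaseh2b/Atm. The interaction was not fitted on that sum.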

How the results depend on the processing

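Leaving out 1 library at a time changed the number of members called within these ranges. At 9 weeks it ran from 2 to 12. At P28 it ran from 0 to 28 in Rnaseh2b against control, 0 to 5 in Atm against control, 22 to 56 in Rnaseh2b/Atm against control, 7 to 17 against Atm, 4 to 8 against Rnaseh2b and 1 to 4 in the interaction. At P5 it ran from 0 to 20 in Rnaseh2b/Atm against control, 0 to 3 against Atm, 0 to 1 in Rnaseh2b/p53 against control and against p53 and 1 to 2 against Rnaseh2b, and stayed at 0 in the others. The share of all genes in each of these fits is not given here. The ranges are therefore not read as results about the members.

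With the level of high-GC genes as a covariate, the calls at P28 became 0 for Atm against control, 21 for Rnaseh2b/Atm against control (18 higher, 3 lower; median 0.059), 18 against Atm (11 higher, 7 lower; median 0.054), 15 against Rnaseh2b (12 higher, 3 lower) and 5 in the interaction. Against control the difference changed sign for Rpl27a (0.048), Rplp2 (0.30), Rpl13 (0.19), Rplp1 (0.58) and Rps10 (0.059), and against Atm for Rplp2 (0.27) and Rplp1 (0.42). The cause was not tested.

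The numbers did not pair the libraries: deviations of same-numbered libraries correlated from -0.546 to 0.086 at 9 weeks, -0.587 to 0.45 at P28 and -0.581 to 0.553 at P5. With the replicate block 4 members were called at 9 weeks, 2 in Atm against control and 17 in Rnaseh2b/Atm against Atm at P28, and at P5 0 in Rnaseh2b/Atm and 0 in Rnaseh2b/p53 against control, 0 against p53 and 1 against Rnaseh2b.

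At 9 weeks 4 were called without the variance trend, 2 within the first block of library codes and 0 within the second. The blocks hold fewer libraries, and of the members called in the main fit only Rpl41 was called in the first. Median scaling gave 2 in Atm against control. With only the groups compared, 17 were called in Rnaseh2b/Atm against Atm at P28, and at P5 0 in Rnaseh2b/Atm against control, 0 in Rnaseh2b/p53 against control, 0 in Rnaseh2b/Atm against Atm and 2 in Rnaseh2b/p53 against p53. The FPKM scales (plus 1 and plus 0.1) gave 0 for Rnaseh2b/Atm against control at P5, and plus 1 gave 0 for Rnaseh2b/p53 against p53. Without both P5 libraries that stand apart, 38 and 10 members were called in Rnaseh2b/Atm against control and against Atm. With pseudogene rows summed the P5 counts were 2 in Rnaseh2b/Atm against control and 0 in Rnaseh2b/p53 against control and against p53, and Rps13 reversed to -0.67 in Rnaseh2b/Atm against Atm. For members named singly, 2088 of the other values kept their side, 94 lost and 17 gained the threshold.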
